A study of Mus musculus with 7 samples.

Results

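The proteasome genes of the cervical spinal cord were examined in mice with and without *Neat1*. All protein-coding genes with a symbol from *Psma* to *Psmg* followed by a number and a count over 0 in every library were taken, which gave 50 of the 55487 genes counted. All groups carried the hSOD1G93A transgene, a mutant human *SOD1* that causes a motor neuron disease in mice and whose line was kept hemizygous by mating to B6/SJLF1 females. Crosses of *Neat1* heterozygotes, with the transgene from the father, gave *Neat1*-KO; hSOD1G93A mice, which lack the long non-coding RNA *Neat1*, and *Neat1*-WT; hSOD1G93A mice, which keep it. RNA was taken at 8 weeks of age from 4 mice of the first genotype and 3 of the second, with 1 library per sample. The methods speak of both sexes in balanced groups for the experiments in general. Neither they nor the labels give the sex of the mice sequenced. *Xist*, the RNA that coats the inactive X chromosome of female cells, had only 0 to 4 counts in each of the 7 libraries. A mix of the sexes is thus not visible in this gene. Libraries keep their label numbers, 1 to 4 for *Neat1*-KO and 2 to 4 for *Neat1*-WT, and values are always listed in this order. Of the 50 genes, 15 encode the constitutive 20S core or its testis subunit *Psma8*, and 17 encode the 19S cap. A further 4 encode the inducible core subunits and *Psmb11* of the thymus, 6 activators or inhibitors and 7 assembly factors. The last gene, *Psmc3ip*, matches the symbol only, since it encodes a factor of meiotic recombination and not a subunit.

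The proteasome degrades proteins that carry ubiquitin chains and is a main route by which neurons remove misfolded proteins. Its 20S core is a barrel of alpha rings, which gate the entrance, and beta rings, which hold the catalytic sites. The 19S cap binds ubiquitin chains, removes them and unfolds the substrate with a ring of ATPases, while activators such as PA28 and PA200 can take the place of the cap. Under interferon, the inducible beta subunits replace the constitutive catalytic ones and form the immunoproteasome. The transcription factor NRF1, encoded by *Nfe2l1*, raises the subunit genes together when proteasome activity is low.

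*Neat1* itself had 4.04 to 5.52 CPM (counts scaled to a common library size after TMM) in *Neat1*-KO and 80.5 to 118 CPM in *Neat1*-WT libraries, so every library lay on the side its label gives. Total counts per library lay between 19661878 and 26031517, and the 50 genes held 0.310% to 0.383% of them. Markers of neurons, oligodendrocytes and astrocytes were abundant, with summed levels of at least 9393, 33417 and 4889 CPM, as in spinal cord tissue. Markers of lymphocytes summed to at most 5.71 CPM. The RNA was of whole tissue, so fewer cells of a type and less RNA per cell cannot be told apart.

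Promoters of 4 subunit genes are shown because they hold the letters that known regulators of these genes bind. They come from RefSeq on GRCm38.p6, which gave a window of 250 bases before to 50 after the start for 42 of the 50 genes. Capitals in *Psmb5* and *Psmb6* mark TGACNNNGC, the core of the antioxidant response element that NRF1 and NRF2 bind. In *Psmc1* and *Psmd4* they mark CGGAAG or its reverse complement, the core of the sites of ETS factors. *Psmb5* encodes the chymotrypsin-like and *Psmb6* the caspase-like catalytic subunit of the core, *Psmc1* an ATPase of the 19S base and *Psmd4* a ubiquitin receptor of the cap. The stretches lie at chr14:54618023-54618245 (minus strand), chr11:70525107-70525356 (plus), chr12:100109952-100110153 (plus) and chr3:95042615-95042864 (minus), and bases on an annotated exon were left off.
Psmb5: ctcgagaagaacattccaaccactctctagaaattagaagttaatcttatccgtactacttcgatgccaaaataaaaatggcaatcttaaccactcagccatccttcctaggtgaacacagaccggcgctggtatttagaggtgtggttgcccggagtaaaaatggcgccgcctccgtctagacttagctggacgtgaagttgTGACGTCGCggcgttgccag
Psmb6: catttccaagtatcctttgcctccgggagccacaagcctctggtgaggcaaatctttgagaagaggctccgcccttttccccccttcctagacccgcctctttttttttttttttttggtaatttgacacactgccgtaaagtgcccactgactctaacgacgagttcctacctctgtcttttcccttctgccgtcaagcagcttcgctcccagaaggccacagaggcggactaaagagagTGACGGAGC
Psmc1: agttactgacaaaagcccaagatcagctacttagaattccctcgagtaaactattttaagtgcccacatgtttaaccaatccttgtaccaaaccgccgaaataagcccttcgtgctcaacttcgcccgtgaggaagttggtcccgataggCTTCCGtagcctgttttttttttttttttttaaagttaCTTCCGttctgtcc
Psmd4: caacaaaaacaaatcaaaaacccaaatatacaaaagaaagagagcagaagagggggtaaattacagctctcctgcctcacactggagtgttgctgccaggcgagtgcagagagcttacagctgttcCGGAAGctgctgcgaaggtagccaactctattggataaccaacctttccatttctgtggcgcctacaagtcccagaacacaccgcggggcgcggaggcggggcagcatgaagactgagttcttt

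The letters TGACNNNGC, on either strand, stood in the windows of 6 of the 42 genes (14.3%), which is close to the 14.0% of all 27025 genes with a window and the 16.8% of those tested here. CGGAAG stood in 23 of the 42 (54.8%), against 18.8% of all genes and 31.1% of those tested. These 23 include *Psma4*, *Psma6*, *Psmb3* and *Psmb4* of the core, 4 of the ATPase genes, and *Psmd1*, *Psmd2* and *Psmd4* of the base. From the lid of the cap they include *Psmd6*, *Psmd8*, *Psmd11*, *Psmd12*, *Psmd13* and *Psmd14*. The rest are *Psmb11*, *Psme3*, *Psme4*, *Psmg1*, *Psmg3* and *Psmc3ip*, the last of which is not a subunit. The element that interferon regulatory factors bind, GAAA repeated after any 2 letters, stood in 5 windows, those of *Psmb3*, *Psmd4*, *Psmd9*, *Psme1* and *Psmg4* (11.9%, against 3.54% of tested genes). TTCNNNGAA, the element of STAT factors, stood in those of *Psmb8*, *Psmd2* and *Psmg1* (7.14%, against 8.10% of tested genes). CCAAT, the box of NF-Y, stood in 35.7% against 42.3%, and GGGGCGGGG, a GC box, in 14.3% against 22.9%. TGACGTCA, the cyclic AMP element, stood in 0 of the 42 windows against 3.35%. In all, 10 motifs were searched, and a match says only that the letters are there.

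No proteasome gene was called different between the genotypes. Of the 50 genes, 48 had enough counts for the test, and 0 passed an adjusted p under 0.1 with an absolute log2 fold change over 0.58, where 0.0325% of all 18449 genes tested did. At an unadjusted p under 0.05 there were 0 of 48, against 4.64% of all genes, and 0 of 48 had libraries that did not overlap between the genotypes, against 5.47%. DESeq2 and limma-voom also called 0 and put 0 under an unadjusted p of 0.05. The adjusted p-values of the 48 genes lay between 0.992 and 0.999 (edgeR quasi-likelihood test, Benjamini-Hochberg). Their log2 fold changes ran from -0.13 for *Psmb8* to 0.18 for *Psmg4*, with a median of 0.037 where that of all genes was 0.0062.

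The intervals show how large a change these libraries leave room for. For 38 of the 48 genes, the whole 95% interval of the difference lay within 1.25-fold in either direction, among them all 14 tested core subunits and all 17 cap subunits. For 46 it lay within 1.5-fold, and *Psmb8* and *Psmb9*, which have the lowest counts, were the exceptions. These intervals are not separate results, since the genes varied together between libraries. With the mean of each genotype taken off, 36 of the 48 had a correlation over 0.5 with the mean of the core genes. Of all genes tested, 25.3% did. In the plot of fold changes, 34 genes lie above 0 and 14 below (29.2% below, where 48.2% of all genes were). This direction rested on single libraries, since 25 of the 48 were lower without *Neat1*-KO library 1 and 31 without *Neat1*-WT library 4.

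**Figure D1:**
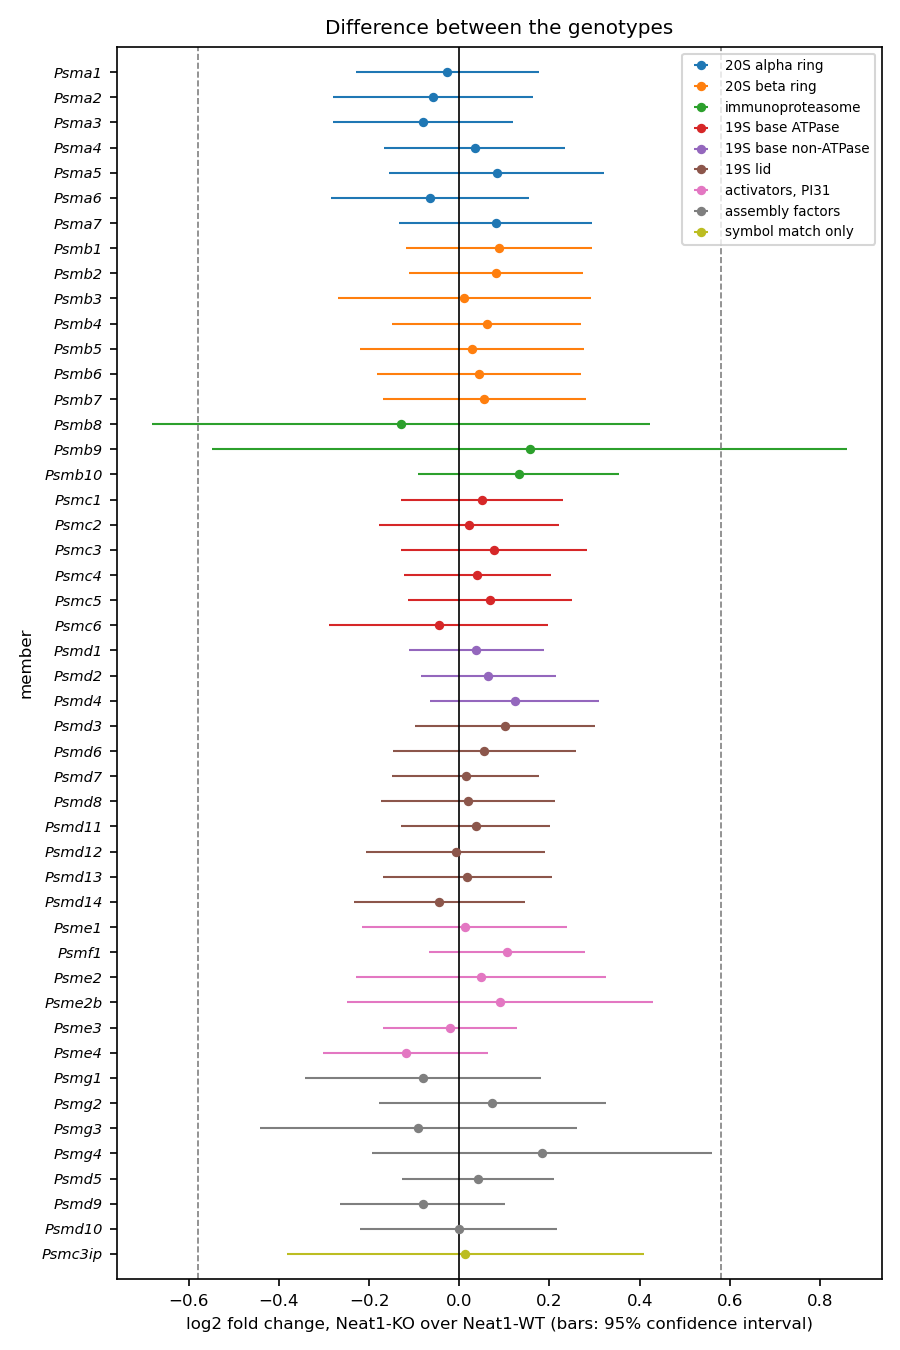
Log2 fold change of *Neat1*-KO over *Neat1*-WT for the 48 tested genes, coloured by class, with bars for the 95% confidence interval and dashed lines at an absolute value of 0.58, the minimum for a call. Every interval crosses 0, and the widest are those of *Psmb8* and *Psmb9*.

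Per length, the class medians of the core and the cap were alike, and those of activators, assembly factors and the inducible subunits were far lower. With CPM divided by the kb of all exons of a gene together, the median was 32.9 CPM per kb for the core and 29.1 for the cap. It was 7.38 for activators and PI31, 8.10 for assembly factors and 0.814 for the inducible subunits. With the principal transcript as the length, the medians were 62.6, 56.3, 11.6, 9.34 and 1.69, so that activators and assembly factors change places. *Psmc5*, an ATPase gene named after its values were seen, was highest by either length, with 171 and 181 CPM per kb, and *Psmc1* came next with 98.7 and 119.9. At the bottom were *Psmb8* with 0.814 and 1.69 and *Psmb9* with 0.461 and 1.25. The third inducible subunit, *Psmb10*, had 14.1 and 18.3 CPM per kb, above all 7 assembly factors by either length. Single activators also left the level of their class. *Psme3* had 27.5 and 30.4 CPM per kb, above the core gene *Psma1* with all exons (20.1) and below it with the principal transcript (49.3). Among the catalytic subunits of the core, the order depended on the length used: *Psmb5* was highest with all exons (51.7, against 48.4 for *Psmb6* and 37.5 for *Psmb7*) and lowest with the principal transcript (51.7, against 113 and 111).

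**Figure D2:**
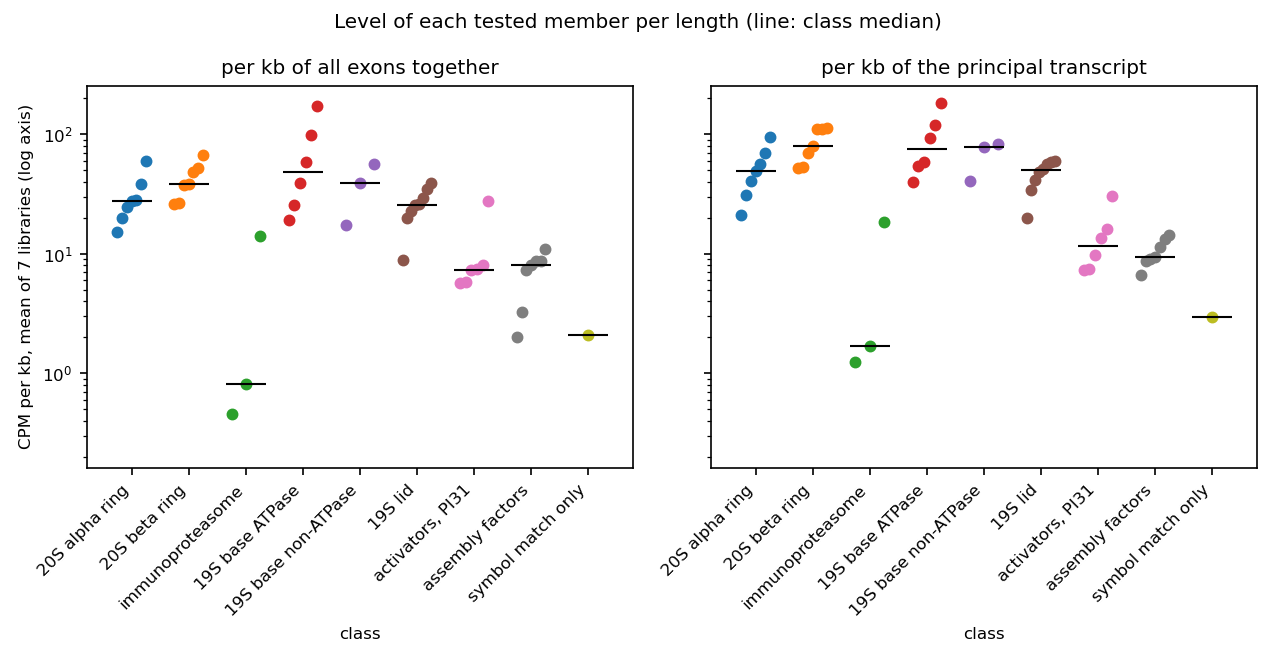
Mean level over the 7 libraries of each tested gene in CPM per kb, on a log axis, by class, with the length of all exons together on the left and of the principal transcript on the right. Lines are class medians. *Psmb8* and *Psmb9* lie far below the other subunits in both panels.

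For the core and the cap, libraries within a genotype spread more widely than the genotype means lay apart. *Neat1*-KO library 1 held the highest value of 32 of the 48 genes, where it was highest for 21.5% of all genes tested, and *Neat1*-WT library 4 held the lowest value of 26, against 15.2%. The summed level of the 20S core was 1304, 1031, 1068 and 1079.7 CPM in *Neat1*-KO and 1138, 1167 and 988 CPM in *Neat1*-WT libraries. It thus ran from 1031 to 1304 CPM within *Neat1*-KO and from 988 to 1167 CPM within *Neat1*-WT. The genotype means were 1121 ± 124 (SD, n = 4) and 1098 ± 95.9 CPM (SD, n = 3). Its highest and lowest library, which differed 1.32-fold, were of different genotypes. The sum of the 19S cap was 2188, 1928, 1883 and 2009 CPM in *Neat1*-KO and 2012, 2019 and 1783 CPM in *Neat1*-WT libraries, in which the same libraries were highest and lowest. Of the 6 activators and PI31, 0 were highest in *Neat1*-KO library 1 and 2 were lowest in *Neat1*-WT library 4. Their sum stayed between 198 and 208 CPM in all libraries, but single genes differed up to 1.37-fold between libraries. In the map of the members by library, the core and the cap are above their mean in *Neat1*-KO library 1 by a median of 0.23 and 0.15 on the log2 scale, and their medians in *Neat1*-WT library 4 were -0.16 and -0.14.

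**Figure D3:**
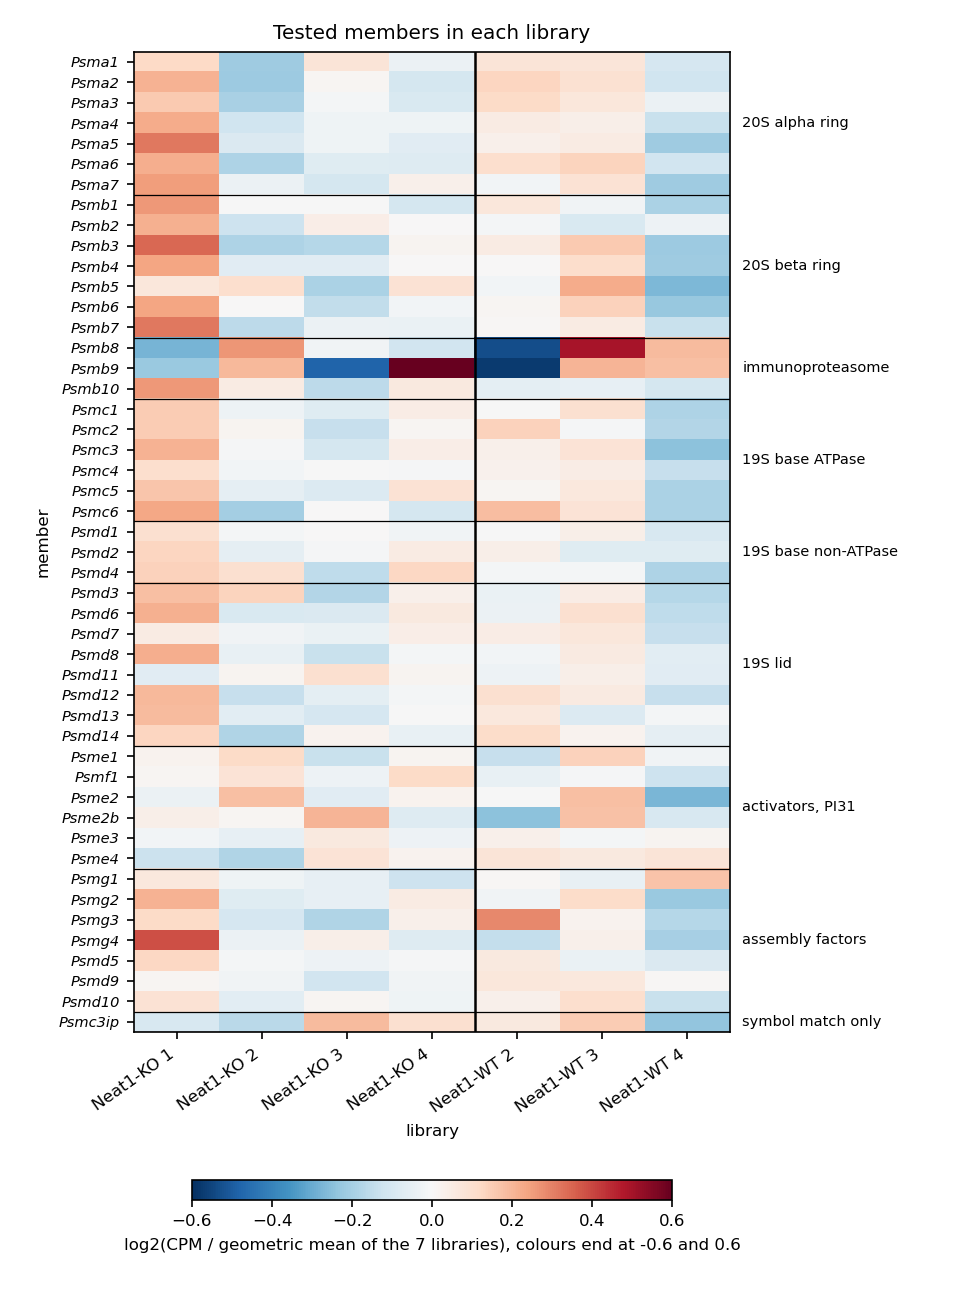
Level of each of the 48 tested genes (rows, grouped by class) in each library (columns), as log2 of CPM over the gene's geometric mean of the 7 libraries. Red is above and blue below that mean, and the line separates the genotypes. *Neat1*-KO 1 is red through most of the core and cap and *Neat1*-WT 4 is blue. Genes that are not highest in *Neat1*-KO 1 include *Psmb8*, *Psmb9*, the lid gene *Psmd11* and the activators and PI31.

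Marker lists of cell types also differed between libraries, and some had their extremes in *Neat1*-KO library 1 and *Neat1*-WT library 4. The 5 markers of meninges summed to 73.0, 191, 155 and 145 CPM in *Neat1*-KO and 65.8, 103 and 196 CPM in *Neat1*-WT libraries, lowest in *Neat1*-WT library 2 and *Neat1*-KO library 1 and highest in *Neat1*-WT library 4 and *Neat1*-KO library 2. Astrocyte markers gave 4889, 6336, 6367 and 5571 CPM in *Neat1*-KO and 5294, 5413 and 6463 CPM in *Neat1*-WT libraries, also lowest in *Neat1*-KO library 1 and highest in *Neat1*-WT library 4. Neuron markers gave 10966, 9683, 9754 and 9393 CPM in *Neat1*-KO and 11447, 10351 and 10107 CPM in *Neat1*-WT libraries, with higher sums in *Neat1*-KO library 1 and *Neat1*-WT library 2. Their lowest sum was in *Neat1*-KO library 4 and not in *Neat1*-WT library 4. Microglia markers ranged from 323 to 436 CPM in *Neat1*-KO and from 301 to 412 CPM in *Neat1*-WT libraries, and oligodendrocyte markers from 33417 to 36229 and from 34827 to 42685. The microglia sum was lowest in *Neat1*-WT library 2 and highest in *Neat1*-KO library 2. The oligodendrocyte sum was lowest in *Neat1*-KO library 4 and highest in *Neat1*-WT library 4. Of the dorsal root ganglion list, *Scn10a* and *Avil*, genes of sensory neurons, had at most 0.255 and 1.12 CPM, *Isl2* had 2.18 to 4.69 CPM, and *Prph*, which motor neurons express too, had 81.1 to 99.4 CPM in *Neat1*-KO and 90.1 to 112 CPM in *Neat1*-WT libraries. The markers of endothelium and blood ranged from 146 to 179 and from 5.80 to 13.6 CPM. With the mean of each genotype taken off, the log2 sum of each list was set against the mean of the core genes over the libraries. The correlation was -0.94 for astrocytes, -0.91 for meninges, -0.82 for microglia and 0.78 for neurons. It was -0.53 for oligodendrocytes and -0.49 for endothelium, and for the low sums of lymphocytes and blood -0.87 and 0.49. The part of tissue composition in the levels of the proteasome genes was not tested.

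**Figure D4:**
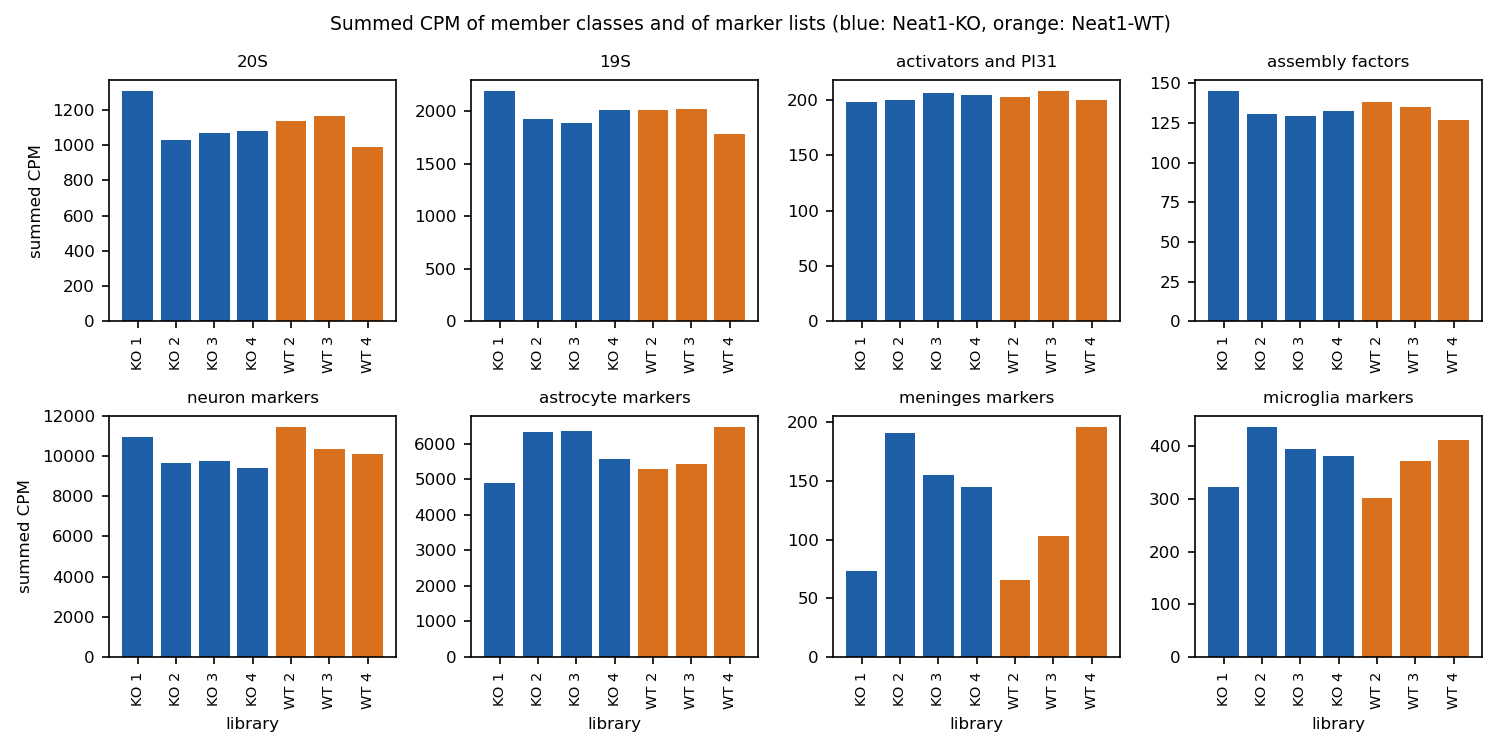
Summed CPM of member classes (top) and of marker lists (bottom) in each library, with *Neat1*-KO in blue and *Neat1*-WT in orange. The 20S and 19S sums are highest in *Neat1*-KO 1 and lowest in *Neat1*-WT 4, the meninges and astrocyte lists are highest in *Neat1*-WT 4, and the sum of activators and PI31 is nearly level.

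In the alpha ring, 3 of 7 tested genes were higher and 4 lower in *Neat1*-KO, with a median log2 fold change of -0.026. *Psma1* (chromosome 7, 114264606 to 114276118 of GRCm38) had 64.2, 51.0, 62.4 and 57.7 CPM in *Neat1*-KO and 62.3, 62.2 and 55.0 CPM in *Neat1*-WT libraries. The genotypes overlapped, and the log2 fold change was -0.026 (SE 0.094, 95% interval -0.23 to 0.18). *Psma3*, with the smallest p of this ring, had 66.3, 51.8, 58.9 and 55.7 CPM in *Neat1*-KO and 64.3, 62.2 and 57.9 CPM in *Neat1*-WT libraries. Its libraries also overlapped, *Neat1*-KO library 1 being the highest and *Neat1*-KO library 2 the lowest, with a log2 fold change of -0.081 (SE 0.092, 95% interval -0.28 to 0.12). *Psma8*, a subunit of the testis, had 2 to 10 counts and was not tested.

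In the beta ring, all 7 constitutive genes had a log2 fold change above 0, between 0.011 and 0.088 with a median of 0.055, of which none passed a test. The sum of the ring was 742, 594, 592 and 613 CPM in *Neat1*-KO and 630.0, 655 and 547 CPM in *Neat1*-WT libraries, and without *Neat1*-KO library 1 this ring lost its common sign, as *Psmb6* and *Psmb7* then had -0.036 and -0.055. *Psmb6* (chromosome 11, 70525367 to 70527858) had 106, 90.2, 81.4 and 89.1 CPM in *Neat1*-KO and 90.8, 99.1 and 76.9 CPM in *Neat1*-WT libraries, a log2 fold change of 0.044 (SE 0.10, 95% interval -0.18 to 0.27). *Psmb7*, which carries the trypsin-like site (chromosome 2, 38588036 to 38644087), had 159, 114, 124 and 124 CPM in *Neat1*-KO and 128, 132 and 116 CPM in *Neat1*-WT libraries, a log2 fold change of 0.055 (SE 0.10, 95% interval -0.17 to 0.28). In both, *Neat1*-KO library 1 was highest and the other libraries of the genotypes mixed. *Psmb1*, a structural subunit with the smallest p of the ring, had 145, 121, 121 and 113 CPM in *Neat1*-KO and 127, 119 and 106 CPM in *Neat1*-WT libraries. Its difference was 0.088 (SE 0.095, 95% interval -0.12 to 0.29) on the log2 scale.

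*Psmb5* (chromosome 14, 54614119 to 54618022) differs from the other catalytic subunits in having a near-identical copy with many reads. It had 48.4, 49.6, 40.5 and 49.0 CPM in *Neat1*-KO and 45.8, 53.9 and 38.3 CPM in *Neat1*-WT libraries, a log2 fold change of 0.028 (SE 0.11, 95% interval -0.22 to 0.28). *Gm3375*, a processed pseudogene on chromosome 7 from 3181093 to 3181888, is 98.9% identical to *Psmb5* over 796 bases, and it had 491, 35, 411 and 52 counts in *Neat1*-KO and 473, 49 and 338 counts in *Neat1*-WT libraries. It was thus high in 4 libraries, 2 of each genotype, and low in the other 3. *Psmb5* had its 4 lowest values in those 4 libraries, *Neat1*-KO library 1 among them, where most core genes were highest. As a share of the other 13 core genes, *Psmb5* was 3.86%, 5.05%, 3.94% and 4.76% in *Neat1*-KO and 4.19%, 4.84% and 4.04% in *Neat1*-WT libraries. *Psmb5* and *Gm3375* together gave 73.7, 51.0, 59.6 and 51.0 CPM in *Neat1*-KO and 67.2, 56.2 and 55.6 CPM in *Neat1*-WT libraries, highest in *Neat1*-KO library 1 and lowest in *Neat1*-KO libraries 2 and 4. Relative to the other core genes the sum was 5.87%, 5.20%, 5.80% and 4.95% and 6.15%, 5.05% and 5.85% in the same order, so the libraries with many *Gm3375* counts were low in *Psmb5* alone and high in the sum. With the counts of both summed, the log2 fold change of *Psmb5* was -0.022 (SE 0.13), so its sign depends on this choice. Counting took reads with a single place in the genome, so a read that fits both places equally is in neither. The cause of the difference between libraries was not tested.

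Of the inducible subunits, *Psmb8* and *Psmb9* were scarce and did not have the high *Neat1*-KO library 1 of the core, while *Psmb10* was more abundant and had it. *Psmb8* (chromosome 17, 34197721 to 34201454), which replaces *Psmb5*, had 2.21, 3.22, 2.64 and 2.48 CPM in *Neat1*-KO and 1.86, 3.78 and 3.06 CPM in *Neat1*-WT libraries, or 41 to 81 counts. *Psmb9* (chromosome 17, 34181987 to 34187764), which replaces *Psmb6*, had 1.39, 1.85, 1.16 and 2.63 CPM in *Neat1*-KO and 1.09, 1.87 and 1.84 CPM in *Neat1*-WT libraries, or 24 to 69 counts. Both were lowest in *Neat1*-WT library 2, *Psmb8* was highest in *Neat1*-WT library 3 and *Psmb9* in *Neat1*-KO library 4, so the genotypes overlapped throughout. The log2 fold changes were -0.13 (SE 0.25, 95% interval -0.68 to 0.42) for *Psmb8* and 0.16 (SE 0.32, 95% interval -0.55 to 0.86) for *Psmb9*, and the sign of each turned when single libraries were left out. *Psmb10* (chromosome 8, 105935735 to 105938444), which replaces *Psmb7*, had 28.7, 24.8, 21.5 and 24.9 CPM in *Neat1*-KO and 22.9, 23.1 and 22.2 CPM in *Neat1*-WT libraries. Its log2 fold change of 0.13 (SE 0.10, 95% interval -0.092 to 0.35) had the smallest p of the class (0.225, unadjusted, edgeR), and *Neat1*-KO library 3 lay below every *Neat1*-WT library. *Psmb11*, the subunit of the thymus, had 1 to 7 counts and was not tested. *Psmb9* and *Psmb8* lie side by side on chromosome 17 with *Tap1* between them, and *Psmb9* shares 212 exon bases with *Tap1* on the other strand, and *Psmb8* 498 with the antisense transcript *Gm20496*. Whether the counting used strand is not given, so their few counts are uncertain.

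The ratio of each inducible subunit to the one it replaces needs no scaling of libraries and showed no difference that the test could tell from 0. Counts of *Psmb8* were 4.56%, 6.5%, 6.53% and 5.05% in *Neat1*-KO and 4.06%, 7.02% and 7.98% in *Neat1*-WT libraries of those of *Psmb5*, a difference of means of -0.13 on the log2 scale (two-sided exact permutation p = 0.714). With *Gm3375* added to *Psmb5*, the ratio became 3.00%, 6.32%, 4.44% and 4.86% and 2.76%, 6.73% and 5.50%, a difference of -0.057. Counts of *Psmb9* were 1.31%, 2.06%, 1.42% and 2.95% in *Neat1*-KO and 1.2%, 1.88% and 2.39% in *Neat1*-WT libraries of those of *Psmb6*, a difference of 0.065 on the log2 scale (two-sided exact permutation p = 0.886). Counts of *Psmb10* were 18.1%, 21.6%, 17.3% and 20% in *Neat1*-KO and 17.9%, 17.5% and 19.1% in *Neat1*-WT libraries of those of *Psmb7*, a difference of 0.078 on the log2 scale (two-sided exact permutation p = 0.457). Adjusted over the 3 ratios, each p was 0.886 (Benjamini-Hochberg), and the smallest p that the design allows is 0.0286. The first and the second of these ratios turned their sign without 1 library.

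**Figure D5:**
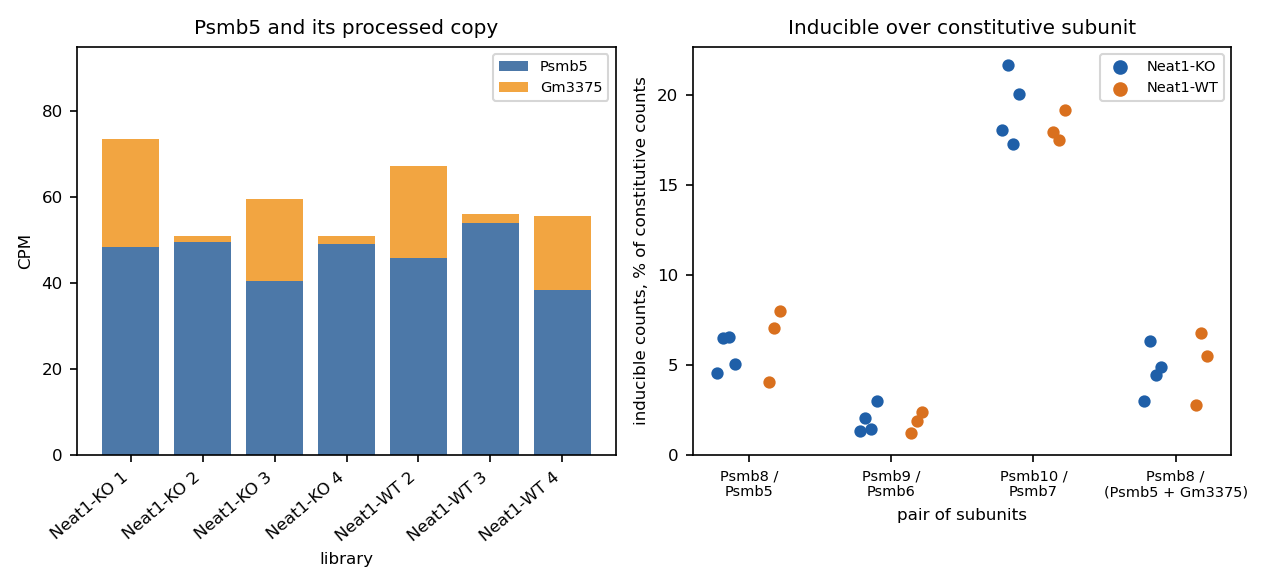
On the left, CPM of *Psmb5* (blue) and of its pseudogene *Gm3375* (orange) stacked for each library. On the right, counts of inducible subunits as a percentage of the constitutive subunit they replace, 1 point per library. The pseudogene is high in 4 libraries, 2 of each genotype, and the points of the genotypes overlap for every ratio.

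Of the 17 genes of the 19S cap, 14 were higher and 3 lower in *Neat1*-KO, with a median log2 fold change of 0.037 and a range from -0.045 to 0.12. Among the ATPases, which unfold the substrate, *Psmc1* (chromosome 12, 100110154 to 100123405) had 211, 186, 181 and 196 CPM in *Neat1*-KO and 190.0, 203 and 167 CPM in *Neat1*-WT libraries, a log2 fold change of 0.050 (SE 0.083, 95% interval -0.13 to 0.23). *Psmc3*, with the smallest p of the ATPases, had 175, 150, 140.1 and 155 CPM in *Neat1*-KO and 154, 159 and 127 CPM in *Neat1*-WT libraries, a log2 fold change of 0.077 (SE 0.095, 95% interval -0.13 to 0.28). Both were highest in *Neat1*-KO library 1 and lowest in *Neat1*-WT library 4. In the non-ATPase base, *Psmd1* (chromosome 1, 86064387 to 86139151), a large scaffold subunit, had 136, 126, 127 and 125 CPM in *Neat1*-KO and 127, 130.1 and 119 CPM in *Neat1*-WT libraries, a log2 fold change of 0.037 (SE 0.069, 95% interval -0.11 to 0.19). *Psmd4* (chromosome 3, 95032694 to 95042614), whose promoter is among those shown, had the smallest p of all members (0.179, unadjusted, edgeR).

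*Psmd4* had 120.3, 117, 98.4 and 119 CPM in *Neat1*-KO and 108, 108 and 96.2 CPM in *Neat1*-WT libraries, a mean of 114 ± 10.3 CPM (SD, n = 4) against 104 ± 7.03 CPM (SD, n = 3). In *Neat1*-KO libraries 1, 2 and 4 it lay above every *Neat1*-WT library, and in *Neat1*-KO library 3 below *Neat1*-WT libraries 2 and 3. The log2 fold change was 0.12 (SE 0.087, 95% interval -0.064 to 0.31), with an adjusted p of 0.992 (edgeR quasi-likelihood test, Benjamini-Hochberg). Without *Neat1*-KO library 3 it was 0.19, with an unadjusted p of 0.0301 and an adjusted p of 0.596 (edgeR quasi-likelihood test, Benjamini-Hochberg). In the lid, which holds the deubiquitinase, *Psmd3* had the smallest p and 145, 140.4, 113 and 130.5 CPM in *Neat1*-KO and 124, 132 and 113 CPM in *Neat1*-WT libraries. Here too *Neat1*-KO library 3 was low, and the log2 fold change was 0.10 (SE 0.092, 95% interval -0.097 to 0.30). The other lid genes ranged from -0.044 to 0.055. *Psmd11*, named after its values were seen, was the one lid gene with its highest value in *Neat1*-KO library 3, with 53.9, 57.1, 60.5 and 57.2 CPM in *Neat1*-KO and 55.4, 58.0 and 53.8 CPM in *Neat1*-WT libraries. This gene stayed within 1.12-fold over all libraries.

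The activators and PI31 comprise 6 genes, of which 4 were higher and 2 lower, with a median log2 fold change of 0.031. *Psme1* (chromosome 14, 55578123 to 55581529) and *Psme2* (chromosome 14, 55587441 to 55591113), the interferon-induced PA28 subunits, lie 5911 bases apart. *Psme1* had 18.1, 19.3, 16.2 and 18.0 CPM in *Neat1*-KO and 16.2, 19.6 and 17.5 CPM in *Neat1*-WT libraries, a log2 fold change of 0.012 (SE 0.11, 95% interval -0.22 to 0.24). *Psme2* had 12.6, 14.6, 12.3 and 13.1 CPM in *Neat1*-KO and 12.9, 14.6 and 10.7 CPM in *Neat1*-WT libraries, a log2 fold change of 0.049 (SE 0.13, 95% interval -0.23 to 0.33). *Psme2b*, also among the 50 genes, had 6.32, 6.21, 7.10 and 5.84 CPM in *Neat1*-KO and 5.21, 6.96 and 5.76 CPM in *Neat1*-WT libraries. Both are uncertain, since their transcripts are 99.4% identical over 794 bases, and with their counts summed the log2 fold change was 0.063 (SE 0.11). *Psme3*, the nuclear PA28 subunit, had 80.2, 78.3, 84.4 and 79.2 CPM in *Neat1*-KO and 82.8, 80.2 and 82.0 CPM in *Neat1*-WT libraries. It was the steadiest member, with 1.08-fold between the highest and lowest library and a log2 fold change of -0.021 (SE 0.069, 95% interval -0.17 to 0.13). *Psme4* (chromosome 11, 30771726 to 30880361), which encodes PA200, had 43.4, 41.9, 50.3 and 48.2 CPM in *Neat1*-KO and 50.1, 49.5 and 50.1 CPM in *Neat1*-WT libraries. In *Neat1*-KO libraries 1, 2 and 4 it lay below every *Neat1*-WT library and in library 3 above them, with a log2 fold change of -0.12 (SE 0.085, 95% interval -0.30 to 0.065) and an unadjusted p of 0.185 (edgeR), the second smallest of the members. *Psmf1*, which encodes the inhibitor PI31, had 37.4, 39.3, 36.3 and 40.1 CPM in *Neat1*-KO and 35.9, 36.8 and 34.0 CPM in *Neat1*-WT libraries. Its log2 fold change was 0.11 (SE 0.080, 95% interval -0.067 to 0.28), and *Neat1*-KO library 3 lay among the *Neat1*-WT libraries.

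Of the 7 assembly factors, 3 were higher and 4 lower, with a median log2 fold change of -0.0010. *Psmg4*, a chaperone of the alpha ring with the largest fold change of all members, had 6.27, 4.68, 4.92 and 4.54 CPM in *Neat1*-KO and 4.35, 4.90 and 4.18 CPM in *Neat1*-WT libraries. *Neat1*-KO library 1 stood above the rest and the others overlapped, with a log2 fold change of 0.18 (SE 0.17, 95% interval -0.19 to 0.56). Of the chaperones of the 19S base, *Psmd5*, *Psmd9* and *Psmd10*, the log2 fold changes were 0.041, -0.082 and -0.0010, named after their values were seen. *Psmc3ip*, which shares only the symbol, had 3.54, 3.39, 4.31 and 4.04 CPM in *Neat1*-KO and 3.94, 4.20 and 3.21 CPM in *Neat1*-WT libraries, a log2 fold change of 0.013 (SE 0.18, 95% interval -0.38 to 0.41).

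Proteasome genes without such a symbol were also without a call. Of 8 found, 5 were higher and 3 lower, with a median log2 fold change of 0.021. In this short list, 1 had an unadjusted p under 0.05 and 1 had libraries that did not overlap (edgeR). Of all genes tested, 4.64% and 5.47% did. *Pomp*, which matures the core, had 121, 95.1, 90.5 and 94.8 CPM in *Neat1*-KO and 103, 102 and 89.2 CPM in *Neat1*-WT libraries, a log2 fold change of 0.029 (SE 0.10, 95% interval -0.19 to 0.25) and the same high *Neat1*-KO library 1 as the core genes. *Adrm1*, a ubiquitin receptor of the cap, had 64.9, 66.9, 56.2 and 66.7 CPM in *Neat1*-KO and 56.7, 65.0 and 58.2 CPM in *Neat1*-WT libraries, a log2 fold change of 0.087 (SE 0.088, 95% interval -0.10 to 0.28). *Ecpas*, which binds the proteasome, was the gene without overlap and is given because of its values, with 127, 121, 129 and 120.3 CPM in *Neat1*-KO and 119.6, 112 and 116 CPM in *Neat1*-WT libraries. Its log2 fold change was 0.10 (SE 0.068, 95% interval -0.042 to 0.25), with an unadjusted p of 0.147 (edgeR). *Akirin2*, which brings proteasomes into the nucleus, was the one gene of this list at an unadjusted p under 0.05 (0.0283, edgeR), with 28, 30.2, 36.3 and 28.4 CPM in *Neat1*-KO and 37.2, 36.9 and 35.3 CPM in *Neat1*-WT libraries. Its *Neat1*-KO library 3 lay among the *Neat1*-WT libraries, and the log2 fold change of -0.25 (SE 0.10, 95% interval -0.46 to -0.031) did not pass over all genes (adjusted p = 0.992, edgeR quasi-likelihood test, Benjamini-Hochberg).

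Of the genes that regulate or feed the proteasome, none was called. The 7 regulators had a median log2 fold change of 0.032, with 4 higher, 3 lower and none at an unadjusted p under 0.05. *Nfe2l1*, the NRF1 gene, had 492, 513, 476 and 521 CPM in *Neat1*-KO and 468, 477 and 459 CPM in *Neat1*-WT libraries, and *Neat1*-KO library 3 was the only *Neat1*-KO library below *Neat1*-WT library 3. Its log2 fold change was 0.097 (SE 0.063, 95% interval -0.038 to 0.23). Of 15 genes of ubiquitin supply and delivery, 8 were higher and 7 lower, and 1 had an unadjusted p under 0.05, against 4.64% of all genes (edgeR). This was *Uba6*, a ubiquitin-activating enzyme, at an unadjusted p of 0.0208 (edgeR), with 23.0, 22.5, 31.9 and 24.2 CPM in *Neat1*-KO and 32.5, 29.8 and 32.4 CPM in *Neat1*-WT libraries. *Neat1*-KO library 3 lay among the *Neat1*-WT libraries here too. Its log2 fold change was -0.32 (SE 0.12, 95% interval -0.57 to -0.057) and its adjusted p 0.992 (edgeR quasi-likelihood test, Benjamini-Hochberg). Of 12 genes of interferon response and MHC class I presentation, for which the immunoproteasome makes peptides, 11 were higher and 1 lower, with a median of 0.20. Of all genes, 48.2% were lower, and their median was 0.0062. In this list 2 genes had an unadjusted p under 0.05, against 4.64% of all genes (edgeR). *Tap2*, a subunit of the peptide transporter, had 15.4, 19, 13.8 and 17.1 CPM in *Neat1*-KO and 11.5, 14.3 and 13.6 CPM in *Neat1*-WT libraries, a log2 fold change of 0.31 (SE 0.13, 95% interval 0.029 to 0.59). *B2m*, the light chain of MHC class I, had 81.7, 95.5, 89.1 and 73.8 CPM in *Neat1*-KO and 72.5, 68.1 and 73.9 CPM in *Neat1*-WT libraries, a log2 fold change of 0.25 (SE 0.092, 95% interval 0.051 to 0.45). These 2 genes were at an unadjusted p of 0.0333 and 0.0176 and at adjusted p-values of 0.992 and 0.992 (edgeR quasi-likelihood test, Benjamini-Hochberg). Microglia, which express such genes, had 9 of 10 markers higher with a median of 0.052, and their part was not tested.

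In the marker lists themselves, 5 of 49 genes tested had an unadjusted p under 0.05 (10.2%, against 4.64% of all genes) and none was called (edgeR). *Mobp* of oligodendrocytes, *Slc18a3* of cholinergic neurons, *Ly6c1* of endothelium and *Prph* of peripheral and motor neurons had log2 fold changes of -0.17, -0.30, -0.27 and -0.20, and *Lum* of meninges had 0.66. *Slc18a3*, a vesicular acetylcholine transporter, had 83.4, 67.1, 74.1 and 71.5 CPM in *Neat1*-KO and 96.1, 93.6 and 83.1 CPM in *Neat1*-WT libraries. The genotypes overlapped, since *Neat1*-KO library 1 lay just above *Neat1*-WT library 4. Of the 7 neuron markers, 5 were lower and 2 higher in *Neat1*-KO, with a median log2 fold change of -0.092. Other lists were more one-sided. All 6 oligodendrocyte markers were lower (median -0.14) and all 5 meninges markers higher (median 0.27). Astrocyte markers were 4 lower and 2 higher, and endothelium and blood markers each 4 lower and 1 higher. Of the 49 marker genes, 1 had libraries that did not overlap between the genotypes, against 5.47% of all genes.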

How the data were processed

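Libraries of poly(A) RNA from 7 cervical spinal cords were made with a directional kit. According to the submitters' notes, the authors used FastQC 0.11.7, Trimmomatic 0.38, HISAT2 2.1.0, SAMtools 1.9 and featureCounts 1.6.3 on mm10, and they deposited raw read counts of uniquely mapped reads per gene, without normalization. The annotation release and strand setting are not given in the sources used here. Symbols and positions came from GENCODE M21, which names 55141 of the 55487 genes.

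Counts were filtered by filterByExpr, scaled by TMM and compared by the quasi-likelihood F-test in edgeR 4.0.16 (R 4.3.3), with Benjamini-Hochberg adjustment over 18449 genes. Standard errors were the log2 fold change over the square root of F, and 95% intervals used the fit's degrees of freedom. DESeq2 1.42.0, limma 3.58.1, other factors, no filter, a replicate block, *Xist* as covariate and leaving out each library were alternatives. Levels were compared per kb of union exon length, and single ratios by exact permutation over 35 splits. Copies were transcripts of at least 90% identity over at least 50% of the length (BLAST 2.17.0), and adding them was chosen after seeing the data. Scripts used Python 3.11.15, pandas 2.3.3, SciPy 1.17.1 and matplotlib 3.10.9, and the tests were tested on simulated data. Total counts of 19661878 to 26031517 set the precision, and intervals cover these libraries only.

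The members, gene lists and marker lists were chosen with earlier results of these data known. Values in every library are given for *Psma1*, *Psmb5*, *Psmc1*, *Psmd1*, the catalytic subunits, the activators, *Psmf1*, *Pomp*, *Adrm1* and *Nfe2l1*, and for the gene of each class with the smallest p. From the other lists, genes at an unadjusted p under 0.05 are named. The lists cover proteasome genes of other symbols (10 symbols, of which 8 were found), regulators, ubiquitin supply, interferon and MHC class I, and markers of 9 cell types or tissues, of which 1 dorsal root gene and with it the summed level of that list are not reported here.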

Additional observations from a re-analysis of the deposited data

Results flagged for a closer look

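Among the 4 *Neat1*-KO libraries, 47 values were examined for a single library that stood apart, taking the gap to its nearest neighbour over the range and Dixon's 95% critical value. This marked 4 of them, where chance gives about 2.35, and groups of 3 were not examined. For *Psmb5*, the gap was 0.875 of the range, as *Neat1*-KO library 3 had 40.5 CPM and the others 48.4 to 49.6. *Gm3375* had 19.1 CPM in that library but 25.2 in *Neat1*-KO library 1. For *Psmd4* the gap was 0.839, also from *Neat1*-KO library 3, at 98.4 CPM against 117 to 120.3. For *Pomp* the gap was 0.849, from *Neat1*-KO library 1 at 121 CPM against 90.5 to 95.1. For the sum of the constitutive beta ring it was 0.865, from the same library, at 742 CPM against 592 to 613.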

How the results depend on the processing

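In all 15 alternatives fitted across all genes, 0 members were called, and the lowest unadjusted p of any member was 0.0301, that of *Psmd4* without *Neat1*-KO library 3, the 1 member under 0.05 there (0 to 1 with 1 library left out). Directions were less firm. The number of members lower in *Neat1*-KO was 14, but 24 with the replicate block, 29 with *Xist* as covariate and 11 to 31 with 1 library left out (25 without *Neat1*-KO library 1, 31 without *Neat1*-WT library 4). Only *Neat1*-KO has a library 1, so under the replicate block this library adds nothing to the genotype difference. That setting is thus not separate from leaving out *Neat1*-KO library 1. *Xist* had at most 4 counts in any library, so the *Xist* covariate holds little. Libraries of the same number did not deviate together (correlations of -0.20, -0.12 and -0.015), so the numbers give no pairing. The median of activators and PI31 was -0.027 with *Xist* and -0.0097 to 0.11 with 1 library left out (highest without *Neat1*-WT library 3), and that of the inducible subunits -0.098 (without *Neat1*-KO library 4) to 0.20. With 1 library left out, the log2 difference of *Psmb8* to *Psmb5* ran from -0.42 to 0.068 (without *Neat1*-WT library 4) and that of *Psmb9* to *Psmb6* from -0.21 (without *Neat1*-WT library 2; -0.16 without *Neat1*-KO library 4) to 0.29. Per kb of the longest transcript, the median levels of core, cap, inducible subunits, activators and assembly factors were 52.6, 45.1, 1.44, 9.37 and 9.34, and per kb of the principal transcript 62.6, 56.3, 1.69, 11.6 and 9.34. Log2 fold changes that changed sign with *Xist* were those of *Psmb5* (-0.030), *Psmd1* (-0.0051), *Psmb6* (-0.057), *Psmb7* (-0.022), *Psme1* (-0.050), *Psme2* (-0.032), *Pomp* (-0.069) and *Psmb1* (-0.028), and with the replicate block those of *Psmb6* (-0.027), *Psmb7* (-0.051) and *Pomp* (-0.070). That of *Psmb5* was -0.022 with its copies added. Those that changed sign with 1 library left out ranged as follows: *Psma1* -0.085 to 0.036, *Psmb5* -0.089 to 0.16, *Psmb6* -0.052 to 0.13, *Psmb7* -0.055 to 0.11, *Psmb8* -0.37 to 0.11, *Psmb9* -0.11 to 0.31, *Psmc1* -0.025 to 0.11, *Psmc3* -0.019 to 0.14, *Psmc3ip* -0.092 to 0.094, *Psmd1* -0.0014 to 0.065, *Psme1* -0.053 to 0.088, *Psme2* -0.064 to 0.16 and *Pomp* -0.076 to 0.075. The causes were not tested. Depth limited *Psmb8* and *Psmb9*, with at most 81 and 69 counts.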

Other observations

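Near-identical copies were found for 12 of the 50 genes, 23 copies in all, of which 20 are annotated as pseudogenes. *Psme2* and *Psme2b* are copies of each other. *Psma5* has 2 such pseudogenes, *Gm8394* and *Gm12989*, with at most 86 and 125 counts, and adding them moved its log2 fold change from 0.083 to 0.074. *Psmd11* has the transcript *A730017L22Rik*, which is 97.9% identical over 1501 bases and had 106 to 190 counts, and adding it moved its log2 fold change from 0.037 to 0.040. For *Psmb3*, *Psma4* and *Psmd2* the log2 fold changes moved from 0.011 to 0.016, from 0.034 to 0.026 and from 0.065 to 0.064. In addition, 15 of the 50 genes share exon bases with another gene. *Psmb7* shares 405 bases with *Nek6*, *Psmd13* shares 342 with *Sirt3* and *Psmc3ip* shares 385 with *Mlx*, each on the other strand.

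Across genes, the ratio of *Neat1*-KO library 1 to the other *Neat1*-KO libraries was lower for genes with a longer transcript, with a Spearman rho of -0.24 over the 48 members and -0.32 over 18417 genes. Genes are not independent, and no p is given.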
